A study of Mus musculus with 14 samples.

Results

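The insulin-like growth factor binding proteins are a family of 7 genes, Igfbp1 to Igfbp7, taken here by name from among 24983 genes with a count above 0 in mouse liver. Each gene's value is the sum of the estimated counts of its transcripts, 17 transcripts for the 7 genes. All 7 passed the filter on low counts that left 13131 genes for testing. RNA was measured in all cases, and protein was not.

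These genes encode secreted proteins that bind insulin-like growth factor 1 and 2 in blood and tissue, lengthen the time the growth factors circulate and set how much reaches the receptor. Hepatocytes are the main source of circulating insulin-like growth factor 1, which they make under the control of growth hormone. Liver Igfbp1 is known for repression by insulin through the transcription factor FOXO1, and Igfbp2 is known for low levels in obesity and induction by fasting and leptin.

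The study placed silk scaffolds in mice fed a high-fat diet and sequenced total liver RNA as stranded mRNA libraries. In the transplant group (n = 6, titled iBAT) the scaffold carried pre-adipocytes, isolated from the stroma of brown adipose tissue and then differentiated. In the comparison group (n = 8, titled Sham) the scaffold was empty, so both groups shared the diet and the scaffold material. The sources used here do not give strain, sex, age, the time since transplantation or the number of cells. Nor do the labels say that each sample is 1 animal. The p-values here therefore set group differences against the spread among samples, which may be technical in part.

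Libraries held 22898793 to 28910968 estimated counts in the transplant group and 19482580 to 28723928 in the empty scaffold group. Hepatocyte markers were abundant in every library, with a summed level of 104130 to 156828 CPM, the counts scaled to a common library size, in the transplant group and 85136 to 150602 CPM in the empty scaffold group. Adipoq, which defines adipocytes, stayed at or below 0.158 CPM. Sample titles carry numbers in 2 ranges, below 100 (3 transplant and 4 empty scaffold samples) and 100 or above (3 and 4 samples), whose meaning the labels do not give. The deposited effective lengths also split the libraries, with 199.69 to 202.91 bases taken off the length of undetected transcripts in 6 libraries and 221.61 to 236.16 in the other 8. This split followed the number ranges except for transplant replicate 1, which is numbered above 100 and fell with the low-numbered libraries.

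The stretches upstream of 3 genes are shown because Igfbp2 was the family member that passed the test, Igfbp4 was the member whose level followed Igfbp2 most closely from library to library, and Igfbp1 carries the best known insulin-responsive promoter of the family. They are from RefSeq on mouse build GRCm38.p6, read 5′ to 3′ on the plus strand, and run from 250 to 21 bases before the annotated start. Capitals mark matches to 4 motifs searched on both strands: CAAAACAA, the core of the insulin response element to which FOXO proteins bind; GTTAAT, a piece of the site of hepatocyte nuclear factor 1; TTCNNNGAA, the site of STAT proteins; and TATAAA, the TATA box.
Igfbp2, chr1:72824230-72824459, plus strand: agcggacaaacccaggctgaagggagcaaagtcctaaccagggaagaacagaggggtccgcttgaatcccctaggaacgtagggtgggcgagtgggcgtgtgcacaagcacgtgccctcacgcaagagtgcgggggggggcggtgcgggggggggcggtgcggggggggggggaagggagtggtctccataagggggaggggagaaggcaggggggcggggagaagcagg
Igfbp4, chr11:99040994-99041223, plus strand: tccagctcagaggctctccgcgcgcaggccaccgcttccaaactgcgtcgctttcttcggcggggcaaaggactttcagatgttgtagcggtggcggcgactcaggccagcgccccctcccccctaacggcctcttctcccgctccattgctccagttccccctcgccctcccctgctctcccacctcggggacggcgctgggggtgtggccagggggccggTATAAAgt
Igfbp1, chr11:7197537-7197766, plus strand: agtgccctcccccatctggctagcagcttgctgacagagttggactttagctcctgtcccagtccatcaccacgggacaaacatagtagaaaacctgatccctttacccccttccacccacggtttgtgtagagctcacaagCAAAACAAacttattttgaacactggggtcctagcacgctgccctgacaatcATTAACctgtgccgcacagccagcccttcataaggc

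Igfbp2's stretch held none of the 4 motifs. In Igfbp4, TATAAA lay 28 to 23 bases before the start. In Igfbp1, CAAAACAA lay 108 to 101 bases before the start, and the capitals ATTAAC mark GTTAAT read on the opposite strand at 56 to 51. Among 32851 RefSeq windows of the 250 bases before a start, 2.21% held CAAAACAA, 6.43% GTTAAT, 7.02% TTCNNNGAA and 12.4% TATAAA. Windows could be matched for 6 of the 7 genes, all but Igfbp6, and TTCNNNGAA was in none of them. A match describes letters in a window and says nothing of binding. Igfbp1 and Igfbp3 are neighbours on chromosome 11, and Igfbp2 and Igfbp5 are neighbours on chromosome 1.

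Levels between genes were compared per length, in the deposited TPM, which divide counts by effective length and scale them to a common total. Igfbp4, which binds both growth factors and mostly restrains them, was the most abundant family member, with 704 ± 239 TPM (SD, n = 6) in the transplant group and 842 ± 271 TPM (SD, n = 8) in the empty scaffold group. Igfbp2 came next, with 276 ± 92.2 TPM (SD, n = 6) and 177 ± 47.5 TPM (SD, n = 8) in the same order of groups. Igfbp7, a relative with weak affinity for the growth factors that is known from vessel walls, followed at 43.4 ± 3.66 TPM (SD, n = 6) and 72.1 ± 21.4 TPM (SD, n = 8). The order of these 3 was the same in every library.

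Igfbp1 stood at 9.60 ± 5.10 TPM (SD, n = 6) in the transplant group and 9.06 ± 2.86 TPM (SD, n = 8) in the empty scaffold group. Igfbp3, the main carrier of the growth factors in serum, stood at 3.71 ± 0.480 TPM (SD, n = 6) and 7.51 ± 2.44 TPM (SD, n = 8). Igfbp1 was above Igfbp3 in 6 of 6 transplant and 6 of 8 empty scaffold libraries, and in the empty scaffold group their SD intervals overlapped. Igfbp5, a binding protein that attaches to extracellular matrix, stood at 0.808 ± 0.213 TPM (SD, n = 6) and 1.32 ± 0.675 TPM (SD, n = 8). Igfbp6, which prefers insulin-like growth factor 2, stood at 0.858 ± 0.662 TPM (SD, n = 6) and 0.827 ± 0.439 TPM (SD, n = 8). These last levels could not be ordered, since Igfbp6 was above Igfbp5 in 3 of 6 transplant libraries and Igfbp5 above Igfbp6 in 7 of 8 empty scaffold libraries.

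**Figure D1:**
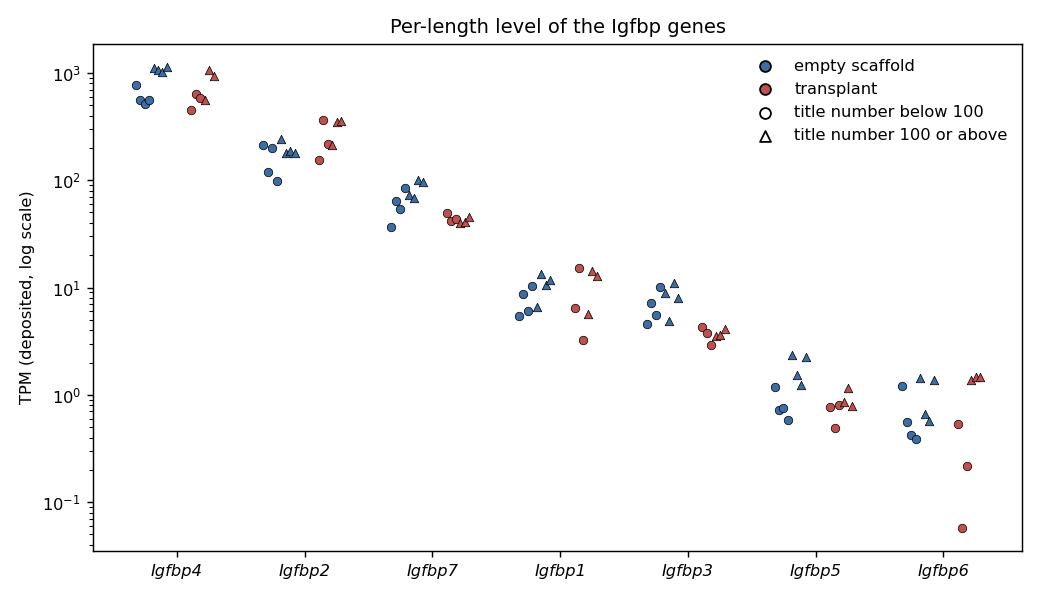
Deposited TPM of the 7 Igfbp genes on a log axis, 1 point per library, with genes in order of level, groups by colour and title number range by marker shape. Igfbp4 and Igfbp2 lie at or above 97.4 TPM in every library, while Igfbp5 and Igfbp6 lie at or below 2.35 TPM.

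TPM and CPM differ in what a comparison between groups shows. Across 10478 genes with a mean of at least 1 TPM, the median difference in log2 TPM between transplant and empty scaffold libraries was -0.41, whereas on the CPM scale used for testing the median over all tested genes was -0.02. Differences in log2 TPM were therefore read against -0.41: Igfbp2 lay 1.03 above it, Igfbp1 0.35, Igfbp4 0.16 and Igfbp6 0.14 above it, and Igfbp3, Igfbp7 and Igfbp5 lay at -0.53, -0.26 and -0.13 relative to it. Before that subtraction the signs of Igfbp1, Igfbp4 and Igfbp6 were the opposite, at -0.06, -0.25 and -0.27. The effective length of Igfbp4 itself was 2491 to 2598 bases in the 6 libraries with the smaller length correction and 2847 to 4189 in the others, and its TPM split along the same line, at 933 to 1134 against 454 to 775. All fold changes below are on CPM scaled by the trimmed mean of M values (TMM), as transplant minus empty scaffold, from edgeR's quasi-likelihood test with Benjamini-Hochberg adjustment over the 13131 genes.

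Igfbp2 was the family member called higher with the transplant in edgeR's fit to all 14 libraries. Its levels in the transplant libraries were 391, 411, 452, 264, 631 and 404 CPM for replicates 1 to 6. In the empty scaffold libraries they were 241, 178.5, 166, 159, 284, 157, 338 and 122 CPM for replicates 1 to 8. Transplant replicate 5 was the highest library and empty scaffold replicate 8 the lowest, and 5 of 6 transplant libraries lay above the highest empty scaffold library. The groups overlapped through transplant replicate 4 at 264 CPM. The mean was 425 ± 119 CPM (SD, n = 6) with the transplant and 206 ± 74.6 CPM (SD, n = 8) without it. The log2 fold change was 1.05 ± 0.22 (SE), or 2.07-fold, with an adjusted p of 0.0175 by edgeR's quasi-likelihood test.

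Of the 7 genes, 1 was called at an adjusted p under 0.05, against 7.54% of all tested genes, of which 435 (3.31%) were higher and 555 (4.23%) lower. Igfbp2 ranked 112 by p among the 13131 genes. Groups that did not overlap in CPM were found for none of the 7 genes and for 1.27% of all tested genes. Leaving out any 1 of the 14 libraries kept the call on Igfbp2, with log2 fold changes from 0.90 to 1.19. The fold change was 0.94 among samples numbered below 100, where the adjusted p was 0.571 and 3 of 12970 genes (0.0231%) were called, and 1.17 among samples numbered 100 or above, where the adjusted p was 0.00666 and 26.0% of genes were called. In the 8 libraries with the larger length correction it was 0.92 with an adjusted p of 0.352, and no gene of 12841 was called there by edgeR's quasi-likelihood test, with 1661 at an unadjusted p under 0.05.

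**Figure D2:**
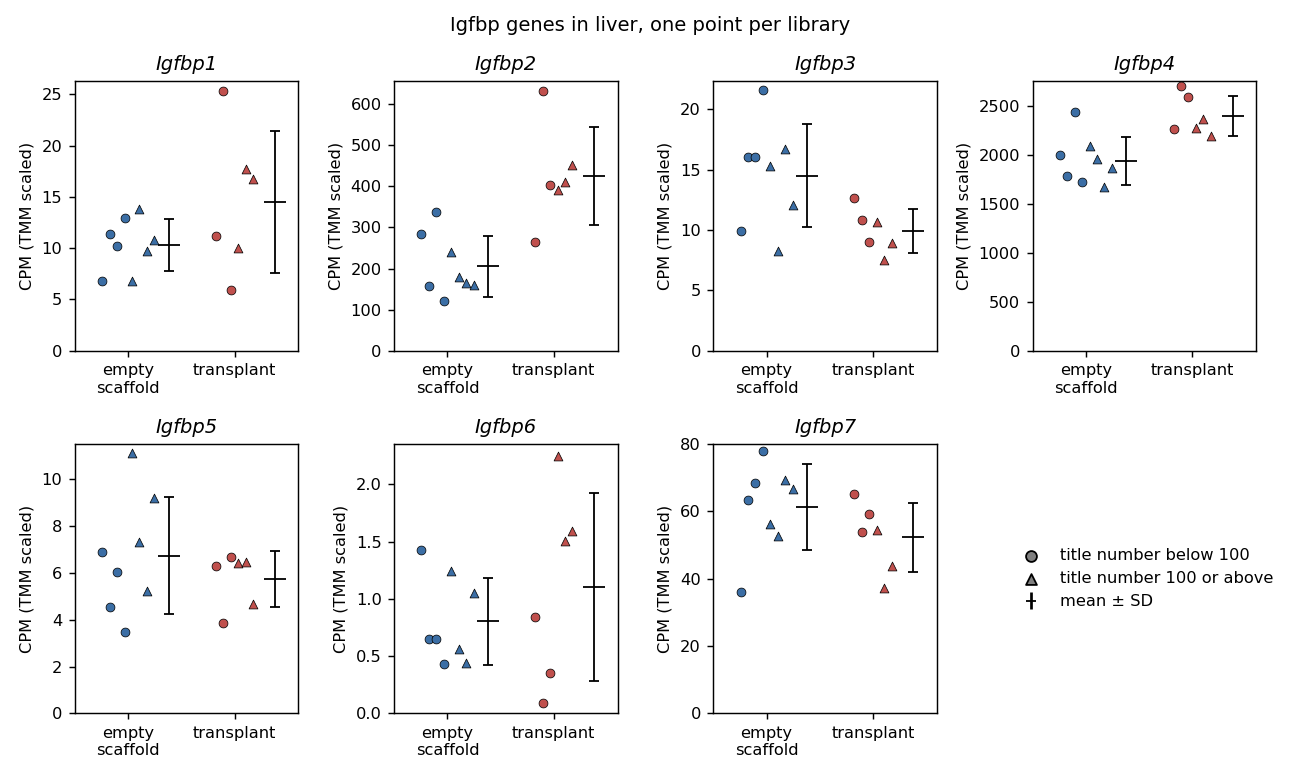
TMM-scaled CPM of each Igfbp gene, 1 point per library, with the mean and SD of each group beside the points (empty scaffold n = 8, transplant n = 6) and marker shape for the title number range. For Igfbp2, 5 of 6 transplant points lie above the highest empty scaffold point at 338 CPM, and for Igfbp5 and Igfbp7 the groups lie across each other.

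Shares of the family total were taken within each library from TPM, which carry the split in effective length. Igfbp2 made up 26.5 ± 4.21% (SD, n = 6) of the summed TPM of the 7 genes in the transplant group and 16.4 ± 4.58% (SD, n = 8) in the empty scaffold group. The ranges, 22.9% to 34.6% and 12.4% to 25.6%, overlapped. In the libraries with the larger length correction the share was 22.9% to 34.6% (n = 4) against 12.8% to 25.6% (n = 4), and in those with the smaller one 23.5% to 26.5% (n = 2) against 12.4% to 16.7% (n = 4), transplant first. Igfbp4's share was 67.5 ± 4.20% (SD, n = 6) against 75.0 ± 4.42% (SD, n = 8). The ratio of Igfbp4 to Igfbp2 in TPM had a median of 2.64 in the transplant group, from 1.72 to 3.07, and of 5.07 in the empty scaffold group, from 2.58 to 6.38. Among the libraries with the larger length correction the ratio was 1.72 to 2.97 against 2.58 to 5.75, and among the others both transplant ratios, 2.60 and 3.07, lay below all 4 empty scaffold ratios, which reached 6.38. Depth was not a limit for these genes, with 3073 to 14439 estimated counts per library for Igfbp2 and 35535 to 65873 for Igfbp4.

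Igfbp4 had 2188, 2321 and 2703 CPM as the lowest, median and highest transplant level, and 1675, 1911 and 2434 CPM in the empty scaffold group. Transplant replicates 5 and 6 lay above all empty scaffold libraries, and empty scaffold replicate 7, which was also the highest empty scaffold library for Igfbp2, lay above 4 of 6 transplant libraries. The means were 2398 ± 205 CPM (SD, n = 6) and 1942 ± 245 CPM (SD, n = 8), and the log2 fold change of 0.30 ± 0.11 (SE) missed the threshold with an adjusted p of 0.0759 by edgeR's quasi-likelihood test. Without empty scaffold replicate 7 it was 0.36 with an adjusted p of 0.0284, and DESeq2 on all libraries gave 0.32 with an adjusted p of 0.0153. With an offset for effective length it was 0.19 with an adjusted p of 0.411, by edgeR. A 785-base processed transcript without an annotated coding sequence held 10.5% of Igfbp4's counts, from 4.08% to 13.96% across libraries, and the 3831-base coding transcript held 89.2%.

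Igfbp1 had 5.90, 13.97 and 25.3 CPM as the lowest, median and highest transplant level, and 6.82, 10.5 and 13.8 CPM in the empty scaffold group. The spread was wider in the transplant group, which held both the lowest library, replicate 6, and the highest, replicate 5. Means of 14.5 ± 6.91 CPM (SD, n = 6) and 10.3 ± 2.54 CPM (SD, n = 8) gave a log2 fold change of 0.49 ± 0.25 (SE) and an adjusted p of 0.198 by edgeR's quasi-likelihood test. No call was made on Igfbp1 when any 1 library was left out, with log2 fold changes from 0.25 to 0.65.

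Igfbp3, made in liver mainly outside hepatocytes, had 7.50, 9.85 and 12.6 CPM as the lowest, median and highest transplant level, and 8.27, 15.7 and 21.6 CPM in the empty scaffold group. Empty scaffold replicate 2, at 8.27 CPM, and replicate 5, at 9.93 CPM, were low among their group, and 5 of 8 empty scaffold libraries lay above every transplant library. The log2 fold change of -0.55 ± 0.18 (SE), from 9.92 ± 1.81 CPM (SD, n = 6) and 14.5 ± 4.25 CPM (SD, n = 8), missed the threshold with an adjusted p of 0.0694 by edgeR's quasi-likelihood test. Without empty scaffold replicate 2 it was -0.63 with an adjusted p of 0.0420, and without replicate 5 it was -0.61 with an adjusted p of 0.0413, by the same test. DESeq2 gave -0.53 with an adjusted p of 0.0469. In deposited TPM, which carry the overall shift given above, the groups did not overlap, with 2.92 to 4.27 TPM in the transplant group and 4.54 to 11.1 TPM in the empty scaffold group. The share of all genes without overlap in TPM was not counted, and in CPM the Igfbp3 groups overlapped.

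Igfbp7 had 37.1, 54.2 and 65.2 CPM as the lowest, median and highest transplant level, and 36.0, 65.0 and 78.0 CPM in the empty scaffold group. Empty scaffold replicate 5 was the lowest of all libraries and replicate 8 the highest. The log2 fold change was -0.23 ± 0.16 (SE), from 52.3 ± 10.3 CPM (SD, n = 6) and 61.3 ± 12.9 CPM (SD, n = 8), with an adjusted p of 0.325 by edgeR's quasi-likelihood test.

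Igfbp5 had 3.84, 6.37 and 6.68 CPM as the lowest, median and highest transplant level, and 3.48, 6.47 and 11.1 CPM in the empty scaffold group. The transplant libraries all lay inside the empty scaffold range. The log2 fold change was -0.24 ± 0.22 (SE) with an adjusted p of 0.481 by edgeR's quasi-likelihood test, and its sign turned when the trend of counts with transcript length was removed, at 0.022. Among the 8 empty scaffold libraries it was higher in those numbered 100 or above, with a mean of 8.23 ± 2.53 CPM (SD, n = 4) where the rest had 5.24 ± 1.52 CPM (SD, n = 4), and a log2 difference of 0.66 ± 0.25 (SE) that missed the threshold with an adjusted p of 0.0651 by edgeR's quasi-likelihood test. In that comparison 23.9% of all tested genes were called and none of the 7.

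Igfbp6 was the least covered member, with 2 to 59 estimated counts per library and a median of 16.5. It had 0.0874, 1.18 and 2.25 CPM as the lowest, median and highest transplant level, and 0.435, 0.651 and 1.42 CPM in the empty scaffold group. The log2 fold change was 0.46 ± 0.46 (SE) with an adjusted p of 0.517 by edgeR's quasi-likelihood test. Of the transplant libraries, 3 lay above the highest empty scaffold library, 2 below the lowest and 1, replicate 4, between them. Those numbered 100 or above held 2.25, 1.51 and 1.59 CPM, and those numbered below 100 held 0.842, 0.0874 and 0.349 CPM. Within the samples numbered 100 or above the log2 fold change was 1.11 with an adjusted p of 0.0483, and within those numbered below 100 it was -0.91 with an adjusted p of 0.693, by edgeR. The call at 100 or above did not hold in the fit to all 14 libraries, where the log2 fold change in that range was 1.10 ± 0.46 (SE) with an adjusted p of 0.0814 by edgeR.

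The difference between those effects on Igfbp6 was 2.03 ± 0.74 (SE), with an unadjusted p of 0.0138 and an adjusted p of 0.193 in edgeR's quasi-likelihood test of the interaction. For the other 6 genes the difference ranged from -0.59 for Igfbp5 to 0.22 for Igfbp2, with SEs from 0.20 to 0.59. No gene of 13131 was called for this interaction, with 2275 at an unadjusted p under 0.05, and without the filter on low counts 8 of 24983 were called. Markers of portal fibroblasts and mesothelial cells, in which Igfbp6 is known to be made, had a summed level of 23.9 to 34.1 CPM in the transplant group and 22.4 to 33.1 CPM in the empty scaffold group. None of the 10 tested of 11 such markers was called, 2 had an unadjusted p under 0.05 and DESeq2 called none. Their median log2 fold change was -0.04.

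**Figure D3:**
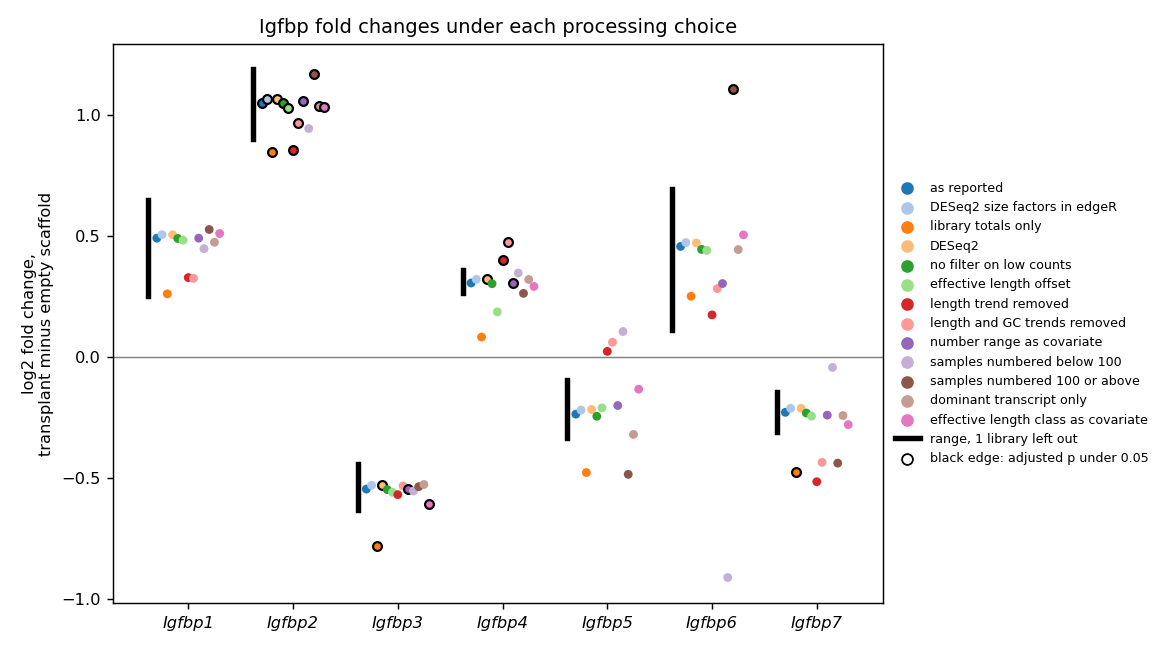
Log2 fold change of each Igfbp gene, transplant minus empty scaffold, as reported and under 12 of the other processing choices (points), with the range over 14 fits that each leave out 1 library (bars); a black edge marks an adjusted p under 0.05. Igfbp2 stays between 0.85 and 1.19, Igfbp3 stays below 0, and Igfbp6 spans -0.91 to 1.11.

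Some markers of other liver cells were called lower in the transplant group. Kupffer cell markers, of the liver's resident macrophages, were called lower by edgeR in 5 of 12 cases and higher in none, with a median log2 fold change of -0.65. Of all 13131 tested genes, 4.23% were called lower and 6949 had a negative log2 fold change. All 12 Kupffer cell markers had a negative one, and DESeq2, which called more genes in all, called 6 of them lower. Their summed level was 159 to 241 CPM in the transplant group and 202 to 479 CPM in the empty scaffold group. Csf1r, the receptor for macrophage colony-stimulating factor, fell by 1.02 ± 0.19 (SE) on the log2 scale, with an adjusted p of 0.0133 by edgeR's quasi-likelihood test. Csf1r, Cd5l and Cd68 were called in all 14 fits that left out 1 library, C1qb in 4 and C1qc in 3. Stellate cell markers were called lower in 3 of 14 cases by edgeR and 7 by DESeq2, and all 14 were negative, with a median of -0.44. None of the edgeR calls held in every fit that left out 1 library: Col3a1 was called in 9 of the 14, Col1a2 in 7 and Lrat in 3. The summed level of the stellate cell markers was 246 to 442 CPM in the transplant group and 282 to 550 CPM in the empty scaffold group. Sinusoidal endothelial markers were called lower by edgeR in 2 of 14 cases, Stab2 (called in 14 of the fits that left out 1 library) and Cdh5 (in 13). DESeq2 called 2 lower. Of the 14 endothelial markers 12 were negative and 2 positive, with a median of -0.32 and sums of 156 to 238 CPM against 181 to 334 CPM.

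In bulk tissue, fewer cells of a type and less RNA per cell cannot be told apart. Hepatocyte markers were called higher by edgeR in 1 of 10 cases, against 3.31% of all tested genes. This was Serpina1c, which was called in 7 of the 14 fits that left out 1 library. Of the 10 hepatocyte markers 8 were positive and 2 negative, with a median of 0.26, and DESeq2 called 2 higher. The part of these marker shifts in the values of Igfbp2, Igfbp3, Igfbp4 and Igfbp7 was not tested. No cholangiocyte marker of 7 tested and no adipocyte marker of 3 tested was called, and none of them had an unadjusted p under 0.05 or a call by DESeq2.

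Of the other genes of the pathway, Igf1, the growth factor itself, had 334, 422 and 521 CPM as the lowest, median and highest transplant level, and 240, 305 and 442 CPM in the empty scaffold group. In 2 transplant libraries the level was above the highest empty scaffold library, and the groups otherwise overlapped. Its log2 fold change of 0.42 ± 0.13 (SE) had an adjusted p of 0.0546 by edgeR's quasi-likelihood test and 0.0223 by DESeq2. Igf2, largely silent in the adult mouse liver, was at 0.401 ± 0.179 CPM (SD, n = 6) and 0.553 ± 0.242 CPM (SD, n = 8), with an adjusted p of 0.359 by edgeR. Igfals, whose product joins Igfbp3 or Igfbp5 and a growth factor in the long-lived serum complex, had means of 124 ± 27.2 CPM (SD, n = 6) and 90.6 ± 22.2 CPM (SD, n = 8). Its log2 fold change was 0.45 ± 0.16 (SE), with an adjusted p of 0.0824 by edgeR and 0.0476 by DESeq2.

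Receptors gave no call by edgeR or DESeq2, with 1 of 3 tested, Igf2r, at an unadjusted p under 0.05. Igf2r, which clears insulin-like growth factor 2, had a log2 fold change of -0.27 ± 0.12 (SE), Insr, the insulin receptor, -0.21 ± 0.13 (SE) and Igf1r -0.26 ± 0.26 (SE). All 3 signs turned when trends with length and GC content were removed, at 0.067, 0.078 and 0.085 in the same order. Igf1r was scarce, at 1.40 ± 0.631 CPM (SD, n = 6) and 1.67 ± 0.424 CPM (SD, n = 8).

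Of 12 proteases of the binding proteins and their inhibitors, 5 were tested and 1 was called lower by edgeR, against 4.23% of all tested genes. Of the 5, 4 had a negative log2 fold change and 2 were lower at an unadjusted p under 0.05. Mmp14, a membrane-bound metalloproteinase, had 23.0 ± 2.89 CPM (SD, n = 6) and 28.9 ± 2.77 CPM (SD, n = 8). It fell by 0.33 ± 0.10 (SE) on the log2 scale, with an adjusted p of 0.0465 by edgeR's quasi-likelihood test, but was called in 5 of the 14 fits that left out 1 library. Htra1, a secreted protease that can cut binding proteins, had a log2 fold change of -0.73 ± 0.28 (SE) with an adjusted p of 0.0977 by edgeR. Pappa and Pappa2, proteases of binding proteins, and Stc1 and Stc2, inhibitors of such proteases, were too low to test.

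Growth hormone signals through the genes Ghr, Jak2, Stat5a and Stat5b, none of which was called, and its targets include the feedback inhibitors Socs2 and Cish, both of which rose. These 2 were the genes called among 8 in this list, against 7.54% of all tested genes called and 3.31% called higher. The list's median log2 fold change was 0.22, beside -0.02 for all tested genes. With library totals alone it was -0.0097, a scaling that moved the median of all genes to -0.25. Socs2 had 7.18, 15.6 and 23.3 CPM as the lowest, median and highest transplant level and 3.02, 5.41 and 9.02 CPM in the empty scaffold group. Its log2 fold change was 1.38 ± 0.29 (SE), with an adjusted p of 0.0185 by edgeR's quasi-likelihood test, and it was called in 13 of the 14 fits that left out 1 library, all but the one without transplant replicate 1. Cish had 1.40, 13.6 and 28.8 CPM against 1.83, 3.28 and 7.57 CPM, so the transplant group held the lowest library and 5 libraries above every empty scaffold one. Its log2 fold change was 2.01 ± 0.47 (SE), with an adjusted p of 0.0284 by edgeR's quasi-likelihood test, and it was called in 9 of those 14 fits. The call on Cish was lost without transplant replicate 1 or 5 or without empty scaffold replicate 3, 4 or 8, and the fold change stayed between 1.67 and 2.28.

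**Figure D4:**
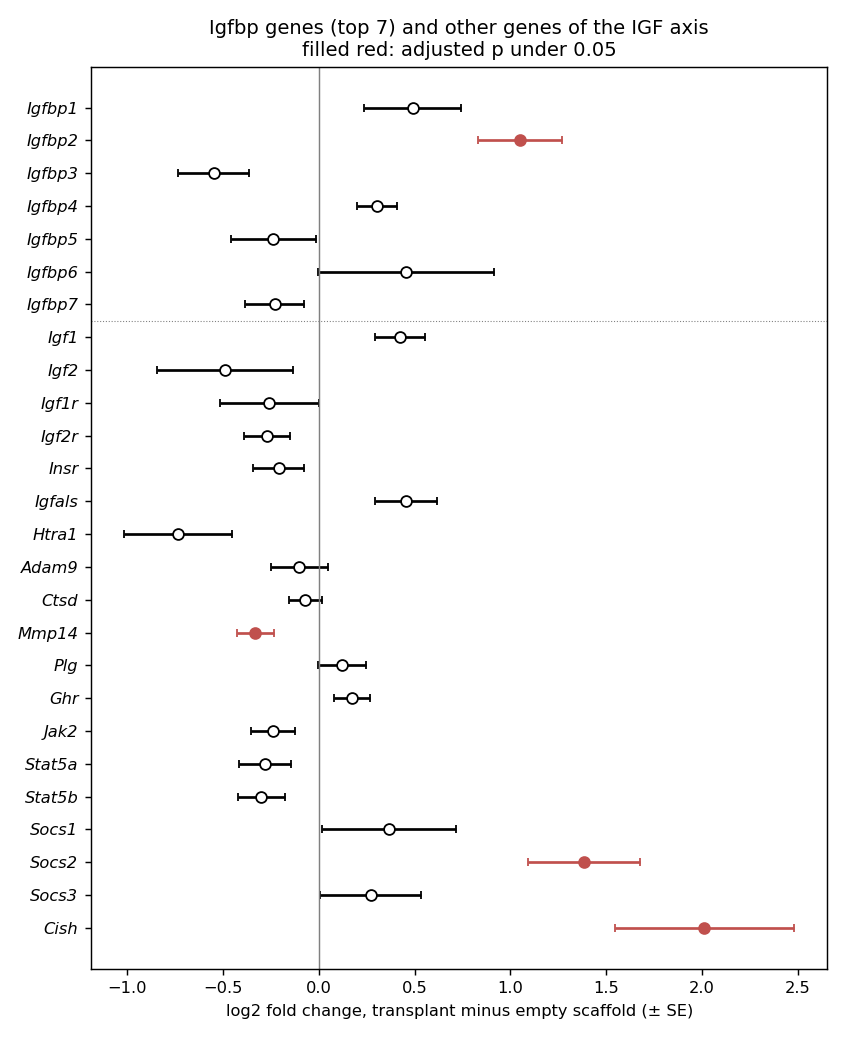
Log2 fold change with its SE, transplant minus empty scaffold, for the 7 Igfbp genes (above the dotted line) and the tested ligands, receptors, Igfals, proteases and growth hormone signalling genes; filled red marks an adjusted p under 0.05. Igfbp2, Socs2 and Cish lie at 1.05, 1.38 and 2.01, and Mmp14 lies at -0.33.

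Lists of genes known to share regulators with Igfbp1 gave no call by edgeR. Of 12 FOXO1 targets and FOXO genes repressed by insulin action, 11 were tested, and their median log2 fold change of -0.14 lay beside -0.02 for all tested genes. By an unadjusted p under 0.05 in edgeR, 2 were higher, Pck1 (0.49 ± 0.20, SE) and G6pc (0.42 ± 0.18, SE). The 2 lower were Ppargc1a and Sesn3 (-0.44 ± 0.18, SE), and DESeq2 called none of the list. The smallest p belonged to Ppargc1a, a coactivator of gluconeogenic genes, at -0.30 ± 0.11 (SE) with an adjusted p of 0.0951 by edgeR. The median turned to 0.10 when trends with length and GC content were removed. Of 12 genes of the amino acid response through ATF4, which can also induce Igfbp1, 11 were tested and none called by edgeR, with 4 at an unadjusted p under 0.05 and 1, Chac1, called by DESeq2. Their median was -0.07.

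Proteins that share the binding protein fold without belonging to the family had 8 of 13 genes tested and none called by edgeR or DESeq2. By an unadjusted p under 0.05, 5 were lower and 1 higher, and the median log2 fold change was -0.50. Crim1, a transmembrane protein that binds bone morphogenetic proteins, had a log2 fold change of -0.40 ± 0.15 (SE) with an adjusted p of 0.0905 by edgeR. Esm1, which endothelial cells secrete, had -1.38 ± 0.53 (SE) with an adjusted p of 0.0965 by edgeR.

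Within the family, levels of Igfbp2 and Igfbp4 followed each other across the 14 libraries. Pearson's r of log2 CPM was 0.91 over all libraries and 0.80 after centring on the group means, the highest of 21 pairs. It was 0.60 among the 6 transplant and 0.88 among the 8 empty scaffold libraries. Igfbp3 and Igfbp7 came next, with r of 0.78 over all libraries and 0.76 after centring, while the next pair reached 0.50. Neighbours on a chromosome did not share this pattern, with r of -0.20 for Igfbp1 and Igfbp3 and -0.06 for Igfbp2 and Igfbp5. These values describe 14 libraries that share scaling, depth and the length split given above.

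**Figure D5:**
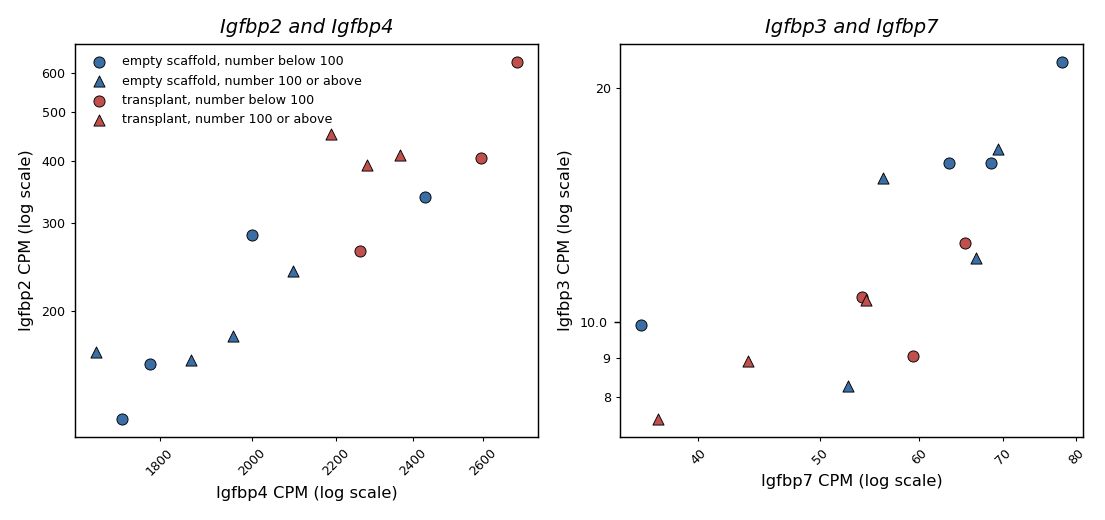
TMM-scaled CPM of Igfbp2 against Igfbp4 (left) and of Igfbp3 against Igfbp7 (right), both axes on log scales, 1 point per library, with groups by colour and title number range by marker shape. On the left the empty scaffold library with the most Igfbp2, at 338 CPM, also holds the most Igfbp4 of its group, at 2434 CPM.

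For each member, the 3 genes with the most similar levels over the 14 libraries were sought by Pearson's r among 10992 tested genes with a mean of at least 1 CPM (10993 for Igfbp6). Such r were taken over both groups together and so include any difference between the groups. Il1rap, which encodes a subunit of the interleukin 1 receptor, followed Igfbp2 with r of 0.95, as did Ahcy, the enzyme that hydrolyses S-adenosylhomocysteine, with r of 0.95, and Tcp1, a chaperonin subunit, with r of 0.94. These 3, picked for that likeness, rose as well, with log2 fold changes of 0.50, 0.57 and 0.34 and adjusted p of 0.0195, 0.0340 and 0.0322 by edgeR's quasi-likelihood test. Igfbp4 was followed by Serpina1a (0.96), Serpina1c (0.95) and Aadat (0.94). Serpina1a and Serpina1c are near-identical copies whose reads can be exchanged, so their separate values are uncertain.

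Igfbp7 was followed by Slc43a3 (0.94), Pdlim7 (0.93) and Eng (0.93), the last of which encodes an endothelial co-receptor. Igfbp3 was followed by Tbkbp1 (0.93), Ctdspl (0.90) and Plin4 (0.90), a lipid droplet coat protein gene. Within the transplant group these 3 had r of 0.58, 0.95 and 0.57, and within the empty scaffold group 0.96, 0.87 and 0.94. The genes most like Igfbp6 were Gpm6a (0.90), which is a mesothelial marker, Bag2 (0.84) and Abhd16a (0.80). Their r was 0.96, 0.94 and 0.95 within the transplant group and 0.66, 0.72 and 0.41 within the empty scaffold group. Igfbp1 and Igfbp5 had looser company, with highest r of 0.84 for Irf2bp2 and 0.81 for Usp21.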

How the data were processed

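Liver RNA from 14 samples was analysed. Per the submitters' processing notes, reads were trimmed with fastp 0.20 and quantified with kallisto 0.46.1 on GRCm39, and DESeq2 1.38 was named among the tools. Each deposited file gives estimated counts, TPM, length and effective length per transcript, per the file headers. Whether strand was used in counting is not given in the sources used here, so a gene and an antisense partner may share reads.

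From the deposited estimated counts, 120661 of 128803 transcripts (93.7%) matched GENCODE M21, a GRCm38 annotation, and held 99.4% to 99.5% of each library's counts. Counts were summed per gene, rounded to whole numbers, filtered with filterByExpr, scaled by TMM and tested with edgeR 4.0.16 (glmQLFit with robust estimation, R 4.3.3) over all genes, with DESeq2 1.42.0 as an alternative. Deposited TPM were summed per gene for order and shares. The fit was tested on simulated data with known fold changes. The simulation held no effect of number range or effective length, so it says nothing of those splits. CPM are counts scaled to a common TMM-adjusted library size.

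The Igfbp genes and the 15 gene lists were chosen with earlier results of these data known. Genes named are all 7 Igfbp genes, tested genes of the pathway lists, up to 4 called genes of each other list or else up to 2 with the smallest p, and the 3 genes most like each Igfbp gene. Also named are the 4 genes of the FOXO1 list at an unadjusted p under 0.05, and Chac1 for its call by DESeq2. Alternatives covered normalization, test, filter, length and GC trends, number range, transcript choice and each library left out; those using the effective length split were added after seeing the data. No 2 libraries were identical.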

Additional observations from a re-analysis of the deposited data

How the results depend on the processing

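Igfbp2 was higher with the transplant in all 16 alternatives beside the 14 that left out 1 library, from 0.85 to 1.21, and was called in 14 of those 16. The exceptions were samples numbered below 100 (0.94) and libraries of the long effective length class (0.92). These held 3 transplant and 4 empty scaffold samples, and 4 and 4. The call was kept among samples numbered 100 or above (3 and 4) and in the short class (2 and 4). Igfbp1 and Igfbp4 were higher and Igfbp3 and Igfbp7 lower in all 16.

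Calls were gained by Igfbp3 with library totals alone (-0.78), DESeq2 (-0.53), number range as a covariate (-0.55) and length class as a covariate (-0.61). Igfbp3 was also called in 2 of the 14 leave-one-out fits, and its 14 log2 fold changes ranged from -0.63 to -0.44. Igfbp4 gained a call with DESeq2 (0.32), number range (0.30) and the length trend removed (0.40). It gained others with length and GC trends removed (0.48), also with length class added (0.45). A call was made in 1 of its 14 leave-one-out fits, and the 14 log2 fold changes ranged from 0.26 to 0.36. Igfbp7 gained one with library totals (-0.48) and in the short length class (-0.61), and Igfbp6 among samples numbered 100 or above (1.11). Signs turned for Igfbp5 with the length trend removed (0.022), length and GC trends removed (0.060, or 0.076 with length class), samples numbered below 100 (0.10) and the long length class (0.16), and for Igfbp6 below 100 (-0.91). Library totals moved the median of all genes to -0.25; against it Igfbp2 lay at 1.10, Igfbp3 at -0.53, Igfbp4 at 0.34 and Igfbp7 at -0.22. Without the filter on low counts, the interaction of Igfbp3 (-0.018) and the range difference in the empty scaffold group of Igfbp1 (0.014) and Igfbp7 (0.019) turned sign near 0.

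The count of called genes was 990, with 2884 by library totals (117 higher and 2767 lower), 1965 by DESeq2 (1032 and 933), 316 with the effective length offset, 575 with the length trend removed, 396 with length and GC trends removed, 2576 with number range and 2274 with length class as a covariate, 3 below 100, 3487 at 100 or above, 142 with the dominant transcript, 0 in the long class (1661 at an unadjusted p under 0.05) and 2644 in the short class. Leave-one-out counts ranged from 138, without transplant replicate 1, to 1910, without empty scaffold replicate 7. The cause of these changes was not tested. Of 612 recomputed values, list medians and counts included, 533 kept their direction and side of the threshold or stayed close, 53 medians, counts or levels without a test moved, 15 gained a call, 2 lost one and 9 changed sign. No paired analysis was possible because replicates were numbered by the order of their accessions, which does not pair them.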
